A study of Mus musculus with 20 samples.

Results

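Srsf2 P95H, a recurrent mutation of myeloid cancers, was compared with its control in erythroid progenitors of mouse bone marrow. All 10 libraries from mice injected with phosphate-buffered saline (PBS) entered, of 20 libraries in the series: 5 from Mx1-Cre Srsf2 P95H/+ mice (called P95H) and 5 from Mx1-Cre mice without the mutation, titled WT by the submitters. They were chosen by genotype and treatment alone. CFU-E (erythroid colony-forming units) were sorted on day 4, after subcutaneous PBS on days 0 and 1. The other 10 libraries came from mice of the same 2 genotypes given phenylhydrazine (PHZ), which lyses red cells, at 30 mg/kg on the same days. They are used below for comparison, and in the tests they add to the estimate of the spread between libraries. Both genotypes carry the Mx1-Cre transgene, whose promoter responds to interferon and is active in blood cells and in other tissues. The sources used here do not say how and when Cre was induced, nor the sex and age of the mice. Each library name ends in its own number, but no label says that the libraries of a group came from separate mice, so p-values measure the spread between these samples.

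CFU-E are late erythroid progenitors that need erythropoietin to survive and divide rapidly before haemoglobin accumulates. SRSF2 is a serine and arginine-rich protein that binds short motifs in exons and promotes their inclusion by the spliceosome. The P95H change lies next to its RNA recognition domain and is known to shift its preference from GGNG toward CCNG motifs, which changes which exons are kept. The series title names increased mTORC1 signalling and missplicing of the kinase gene Fyn, and this steady-state comparison asks what the mutation does in CFU-E before anaemia is imposed.

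Codon 95 of Srsf2 is shown because the mutation changes it. It lies at chr11:116852645-116852647 (GRCm38, minus strand) in exon 1 of 3 of transcript Srsf2-201, within a coding sequence of 663 bases. The reference sequence of GENCODE vM21 around it, on the coding strand 5′ to 3′ with the codon for proline in capitals (chr11:116852615-116852677), is as follows.
Srsf2 codon 95: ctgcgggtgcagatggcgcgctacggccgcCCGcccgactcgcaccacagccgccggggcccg
The values are per gene, so they show neither this change nor the use of exons, and they do not check the genotype.

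The expression signal is TPM-like: it is scaled by transcript length and library. In the 10 libraries its sums ran from 969269.7 to 1085047, 10434 to 10754 entries had a value of at least 1, and the read depth behind a value is unknown. The markers of the sort were as labelled. Kit ranged from 73.9 to 155, Eng, which encodes CD105, from 92.7 to 125, and the erythroid regulator genes Gata1 and Klf1 from 215 to 404. Of the genes for excluded surface proteins, Slamf1 (CD150) stayed at or below 0.0985, Ly6a (Sca-1) at or below 1.02, Itga2b (CD41) at or below 2.26 and Fcgr3 (CD16) at or below 3.65. Some libraries stood apart. P95H replicates 4 and 5 lay at 17.4 and 16.5 on the first principal component (24.3% of the variance), where the other 8 lay between -12.2 and 4.58, and Mx1-Cre replicate 4 lay at -23.6 on the second. Xist, expressed from the inactive X chromosome of females, exceeded the Y-linked Ddx3y in 3 Mx1-Cre and 2 P95H libraries, so both groups held libraries of either kind.

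Few genes passed the threshold, most of them with modest differences, and more were lower than higher in P95H. Of 10890 genes tested with limma, 39 were higher (0.358% of those tested) and 122 lower (1.12%) at an adjusted p under 0.05, and 1539 (14.1%) had an unadjusted p under 0.05. The median difference of the higher genes was 0.55 and of the lower genes -0.37 on the log2(value + 1) scale, and the size passed 1 in 4 and 1 of them. The groups did not overlap in 36 of the 39 and 106 of the 122 genes, against 0.891% and 2.78% of all genes tested. The genes were called on these same values, so this separation is a description and no further support. The median over all genes was -0.03, and 39.8% of genes had a positive difference. Higher genes made up 24.2% of the calls, against 40.5% under TMM factors (53 higher, 78 lower) and 39.4% under quantile normalization (52 and 80). The calls numbered 17 and 61 when the PBS groups were fitted alone and 158 and 380 with library weights. The counts fell to 21 and 69 without P95H replicate 5, to 25 and 67 without Mx1-Cre replicate 3, and to 66 lower genes without Mx1-Cre replicate 1. Below, paired means are given for Mx1-Cre first and P95H second, ± SD with n = 5 each. A total of 19 higher and 53 lower genes remained called without any 1 of the 10 libraries, and all 161 kept their sign. Each of these fits kept the other libraries on which the genes were called, so a kept sign is no further support.

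**Figure D1:**
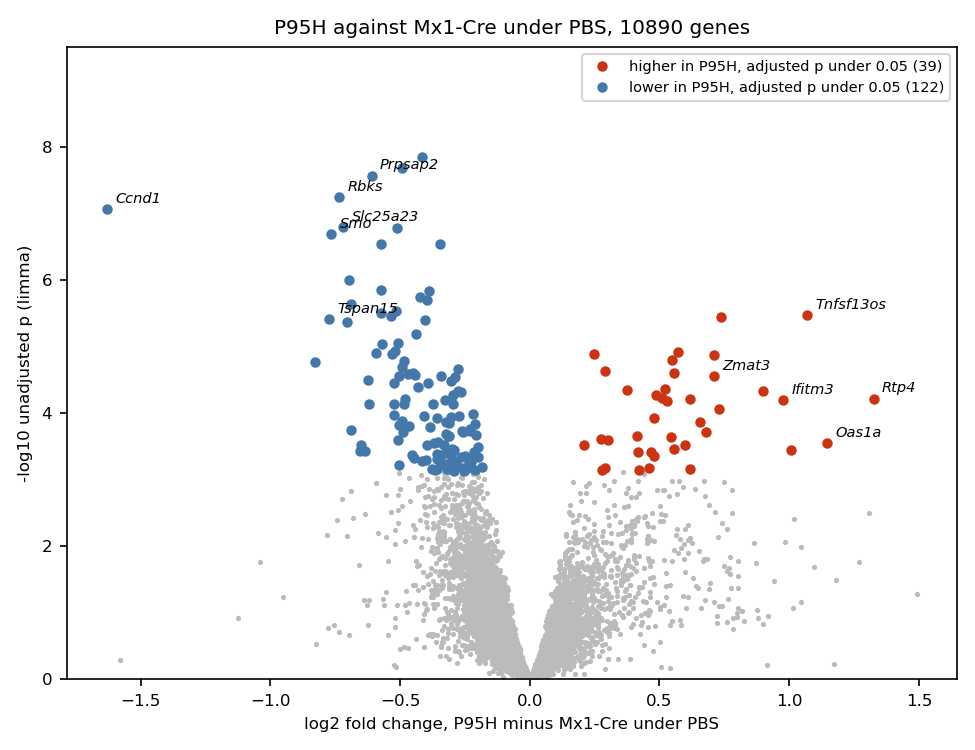
Log2 fold change (x axis, P95H minus Mx1-Cre under PBS) against -log10 of the unadjusted p (y axis, limma) for 10890 genes, with genes past an adjusted p of 0.05 coloured. The 122 lower genes reach smaller p-values than the 39 higher ones, and Ccnd1 stands alone at the left among the called genes.

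Srsf2 itself was expressed at 727, 646, 689.9, 656 and 677 in Mx1-Cre replicates 1 to 5 and at 648, 563, 604, 693 and 605 in P95H replicates 1 to 5. The ranges overlapped and the difference was not called (log2 fold change -0.13, SE 0.0547, adjusted p = 0.288). After PHZ, Srsf2 averaged 685 ± 35.6 in Mx1-Cre and 586 ± 20.2 in P95H. Those groups did not overlap, and the decrease was called (log2 fold change -0.22, adjusted p = 0.0188). Fyn, a Src family kinase gene, had values of 7.30, 6.71, 5.90, 5.49 and 7.02 in Mx1-Cre and 5.86, 5.81, 6.60, 6.85 and 8.27 in P95H. Its groups overlapped throughout (log2 fold change 0.03, SE 0.0953, adjusted p = 0.913), and total levels say nothing of its isoforms.

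Ccnd1 showed the largest decrease among called genes. It encodes cyclin D1, which binds the kinases CDK4 and CDK6 in G1 phase, and lies at chr7:144929931-144939925, minus strand. Mx1-Cre libraries had 5.91, 3.41, 4.52, 7.85 and 8.33 and P95H libraries 1.35, 1.22, 1.07, 1.32 and 0.952, so that every P95H value lay below the lowest control, and the P95H values were closer together than those of the controls. The mean fell from 6.004 ± 2.11 to 1.18 ± 0.168 (SD, n = 5 each; log2 fold change -1.63, SE 0.204, adjusted p = 0.000188), and it stayed called without any 1 library, without P95H replicates 4 and 5 and with the mean level of granulocyte and monocyte markers as a covariate (the granulocyte covariate). Of the 26 tested genes of the cell cycle entry list, cyclins, their kinases, inhibitors and E2F partners, Ccnd1 was the 1 lower call, beside 1.12% of all genes, and none was higher (median -0.06). Cdkn1a, a CDK inhibitor gene, averaged 0.931 ± 0.463 and 2.45 ± 1.24 and was not called (log2 fold change 0.78, adjusted p = 0.108). None of 41 DNA replication genes and none of 40 mitosis and cytokinesis genes was called, with medians of -0.01 and -0.08. In the mitosis list 5 of 40 members had a positive difference, and Cenpe, a kinetochore motor gene, and Kif23, a cytokinesis motor gene, came nearest to the threshold (log2 fold change -0.32 and -0.37, adjusted p = 0.0687 and 0.0712).

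Among genes with a mean of at least 5 over the PBS libraries, Tspan15, Smo, Rbks and Slc25a23 had the largest decreases. Smo, the signal transducer of the Hedgehog pathway, had 17.6, 17.05, 20.8, 16.1 and 18.4 in Mx1-Cre and 9.20, 9.38, 13.2, 9.20 and 10.2 in P95H. The groups were apart, although P95H replicate 3 was nearer the controls than the other 4 (log2 fold change -0.76, SE 0.102, adjusted p = 0.000281). Rbks encodes ribokinase, which phosphorylates ribose, and had 23.9, 25.9, 24.7, 27.3 and 26.2 in Mx1-Cre and 14.6, 15.8, 15.8, 15.8 and 13.1 in P95H. Each P95H library was well below each control (log2 fold change -0.73, SE 0.0909, adjusted p = 0.000157). Prpsap2 encodes a protein that associates with phosphoribosyl pyrophosphate synthetase, also an enzyme of ribose phosphate use. It had 22, 20.02, 18.7, 18.5 and 19.3 in Mx1-Cre and 12.3, 14.2, 11.5, 12.2 and 12.6 in P95H, again without overlap (log2 fold change -0.61, SE 0.0721, adjusted p = 9.8e-05). Slc25a23, a calcium-dependent carrier of ATP-magnesium and phosphate in the inner mitochondrial membrane, had 9.14, 9.72, 9.56, 8.31 and 9.07 in Mx1-Cre and 4.81, 4.66, 5.65, 5.30 and 5.45 in P95H (log2 fold change -0.72, SE 0.0948, adjusted p = 0.000257). Its values, too, were apart. Smo, Rbks, Prpsap2 and Slc25a23 kept their calls under all 24 alternatives run.

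**Figure D2:**
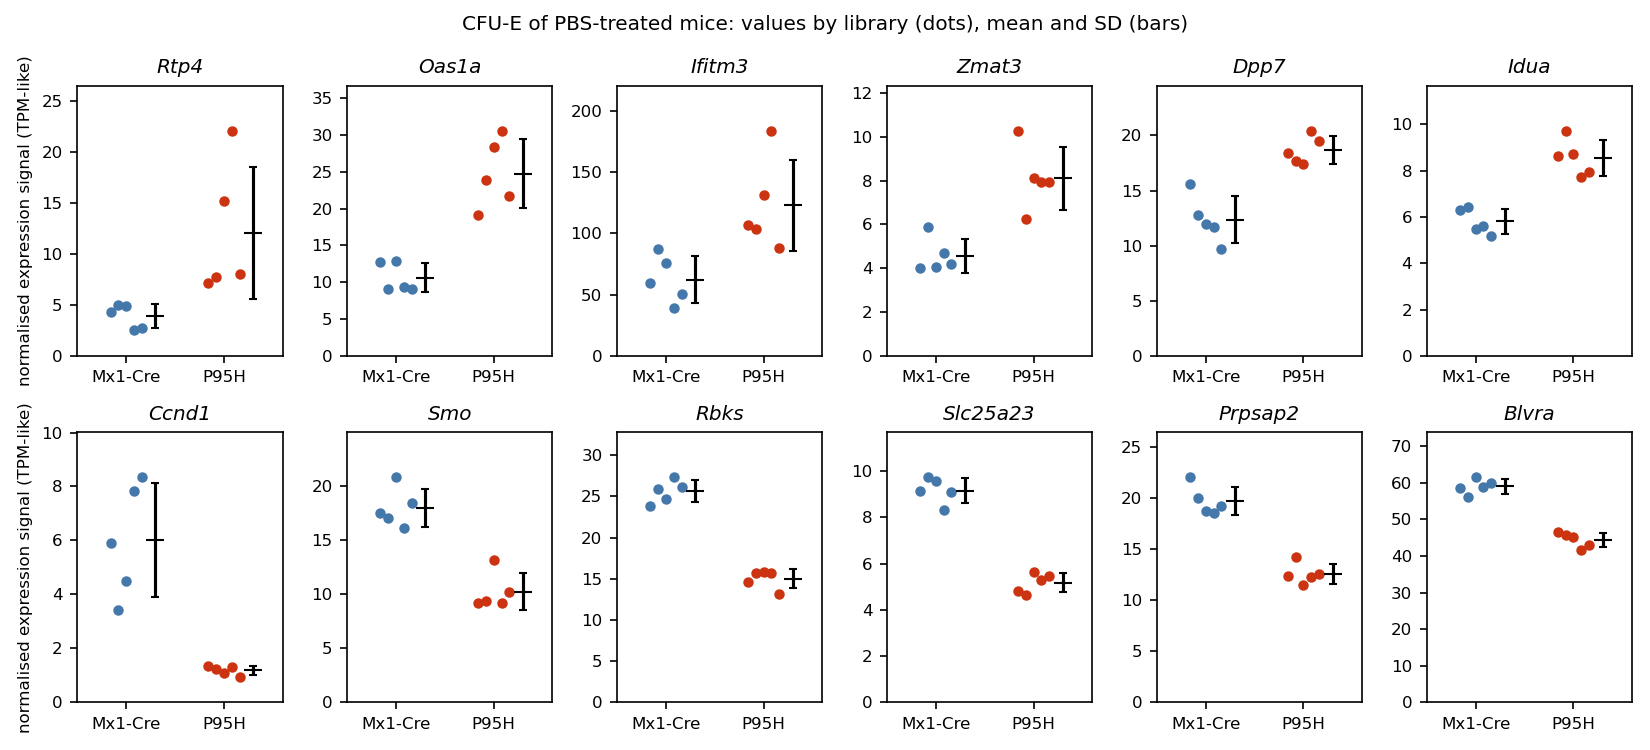
Normalised expression signal (y axis, TPM-like) of 12 genes in the 5 Mx1-Cre and 5 P95H libraries of PBS-treated mice, with dots for libraries and bars for mean and SD. The top row is higher and the bottom row lower in P95H; no group overlaps its control.

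Tspan15, a tetraspanin that partners the membrane protease ADAM10, had 9.55, 9.81, 11.4, 9.25 and 8.32 in Mx1-Cre and 5.48, 7.53, 5.92, 4.32 and 3.54 in P95H (log2 fold change -0.78, SE 0.126, adjusted p = 0.00187). The groups were apart, P95H replicates 4 and 5 were the lowest, and without both the log2 fold change was -0.55 (adjusted p = 0.0201). Dmac2, an assembly factor of respiratory complex I, had a mean of 17.4 ± 1.63 in controls and 11.4 ± 1.19 in P95H (log2 fold change -0.57, SE 0.0872, adjusted p = 0.00124). Tfcp2, a transcription factor of the CP2 family known to bind the alpha-globin promoter, averaged 10.8 ± 0.958 and 6.93 ± 0.898 (log2 fold change -0.57, SE 0.0782, adjusted p = 0.000311). Both were lower in 5 of 5 P95H libraries than in every control. Zfp523, a zinc finger protein gene, averaged 8.29 ± 0.588 and 5.28 ± 0.869 (log2 fold change -0.57, SE 0.0922, adjusted p = 0.00187), and Clstn3, a calsyntenin gene, 17.1 ± 2.41 and 10.97 ± 1.01 (log2 fold change -0.59, SE 0.105, adjusted p = 0.00446). Tspan15, Dmac2, Tfcp2, Zfp523 and Clstn3 kept their calls without any 1 library. The smallest p-values belonged to smaller decreases in Timm21, which encodes a subunit of the mitochondrial protein import machinery (49.3 ± 2.24 and 36.7 ± 1.66, log2 fold change -0.42, SE 0.0473, adjusted p = 9.8e-05), and Nup210, a nuclear pore gene (142 ± 11.5 and 100.3 ± 3.74, log2 fold change -0.49, SE 0.0574, adjusted p = 9.8e-05), both named after their values were seen.

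The remaining leading decreases were less stable. Marcksl1, which encodes an actin-regulating substrate of protein kinase C, averaged 15.3 ± 1.82 and 9.49 ± 2.005 (log2 fold change -0.65, SE 0.15, adjusted p = 0.0299). Armcx2, an X-linked armadillo repeat gene, averaged 10.01 ± 3.47 and 5.79 ± 0.802 (log2 fold change -0.66, SE 0.155, adjusted p = 0.0347), and Gsta4, a glutathione transferase gene for products of lipid peroxidation, 12.1 ± 3.81 and 7.30 ± 1.31 (log2 fold change -0.63, SE 0.15, adjusted p = 0.0347). In both, Mx1-Cre replicate 4 was the highest library (15.9 and 18.9), and the call was lost without it. Marcksl1 also lost its call without any 1 of Mx1-Cre replicates 2 to 5 or P95H replicates 2, 3 and 5 (adjusted p up to 0.0842), Armcx2 without any 1 of Mx1-Cre replicates 1 and 4 or P95H replicates 1, 3, 4 and 5 (up to 0.0876), and Gsta4 without any 1 of Mx1-Cre replicates 2, 3 and 4 or P95H replicates 2, 3 and 5 (up to 0.0968). Armcx2 and Gsta4 also missed the threshold with the granulocyte covariate (log2 fold change -0.62 and -0.61, adjusted p = 0.112 and 0.111), and Marcksl1 under quantile normalization (adjusted p = 0.0673).

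Blvra, which encodes biliverdin reductase A, the enzyme that turns the haem breakdown product biliverdin into bilirubin, was clearly separated. Controls had 58.6, 56.1, 61.5, 58.96 and 60.1 and P95H libraries 46.5, 45.8, 45.1, 41.8 and 43.03. The spread within each group was small beside the gap (log2 fold change -0.40, SE 0.0657, adjusted p = 0.00187). Of 29 tested NRF2 and antioxidant genes, Blvra and Gsta4 were the 2 lower calls, beside 1.12% of all genes, and none was higher (median -0.00). The call of Gsta4 was lost without any 1 of the 6 libraries named above.

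Genes that encode the splicing machinery held a single call. Bclaf1 encodes an SR-related protein of RNA processing complexes, and it had 177, 194, 186, 187 and 170.1 in Mx1-Cre and 155, 147, 137, 161 and 153 in P95H. All P95H values were below all controls (log2 fold change -0.28, SE 0.0514, adjusted p = 0.00633). It was the 1 call, lower, among 21 SR protein kinases and cofactors (median -0.07), beside 1.12% of all genes. None of 14 SR splicing factors, 27 hnRNP genes, 45 core spliceosome genes or 23 genes of nonsense-mediated decay was called, with medians of -0.02, -0.02, 0.02 and -0.01. Of 15 genes reported elsewhere as SRSF2 splicing targets none was called. The splicing genes nearest to the threshold without a call were Hnrnph1, an hnRNP gene with 465 ± 31.2 and 401 ± 35.2 (log2 fold change -0.21, adjusted p = 0.0711), and Hnrnpa2b1, whose difference was positive at 0.20 (adjusted p = 0.0857). Hnrnpa2b1 passed only with TMM factors, the authors' factor divided out, library weights or Mx1-Cre replicate 4 left out (adjusted p from 0.00556 to 0.0476). Hnrnph1 passed only with library weights or without Mx1-Cre replicate 5 or P95H replicate 1 (adjusted p from 0.0273 to 0.047). After PHZ, Hnrnpa2b1 was called (log2 fold change 0.23, adjusted p = 0.0209) and Hnrnph1 was not (log2 fold change -0.15, adjusted p = 0.144).

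Interferon-stimulated genes led the increases. These genes encode antiviral proteins and are switched on by the factor complex ISGF3 at interferon-stimulated response elements. Of 35 tested members, 4 were higher, none was lower and 31 were not called, beside 0.358% of all genes called higher. The list median was 0.38 against -0.03 over all genes, and 32 of 35 differences were positive. RefSeq promoter windows (GRCm38.p6, 250 bases before to 50 after the start site) were searched on both strands for GAAANNGAAA, which is TTTCNNTTTC on the other strand, a core shared by such elements. Among tested genes with a window, 3.62% of 8261 held a match, as did 13 of 27 list members and 3 of 28 genes higher in P95H. The 3 are shown as the promoters of called members, 5′ to 3′ in the direction of the gene with matches in capitals (overlapping matches run together), Oas1a at chr5:120907526-120907570 and Ifi203 at chr1:173942493-173942552 up to the start site (for Ifi203, the second of 2 listed starts), and Ifitm3 at chr7:141010716-141010742 just after it, all on the minus strand.
Oas1a: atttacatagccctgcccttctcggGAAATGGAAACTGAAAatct
Ifi203: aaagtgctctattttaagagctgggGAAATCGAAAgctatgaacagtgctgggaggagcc
Ifitm3: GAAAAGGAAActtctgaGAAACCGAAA
A match is a description of these letters, not a measured binding site.

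Rtp4, a receptor transporter protein gene induced by type I interferon, lies at chr16:23520291-23614222, plus strand. It had 4.27, 5.02, 4.91, 2.54 and 2.71 in Mx1-Cre and 7.17, 7.75, 15.2, 22.1 and 8.08 in P95H. All P95H libraries were above all controls, with replicates 3 and 4 far above the other 3 (log2 fold change 1.33, SE 0.26, adjusted p = 0.0108). Oas1a, a double-stranded RNA sensor that makes oligoadenylates, had 12.8, 9.07, 12.8, 9.33 and 9.07 in Mx1-Cre and 19.2, 23.9, 28.4, 30.5 and 21.7 in P95H (log2 fold change 1.14, SE 0.257, adjusted p = 0.0294). Its groups were apart, and P95H replicates 3 and 4 were again high. Ifitm3, a membrane protein gene that restricts virus entry, had 59.2, 87.5, 75.8, 38.8 and 50.6 in Mx1-Cre and 107, 104, 132, 184 and 88.5 in P95H. Its P95H values were all higher, by a small margin in replicate 5, and replicate 4 was again the highest (log2 fold change 0.98, SE 0.19, adjusted p = 0.0109). Ifi203, a member of the interferon-inducible PYHIN family, stayed low, at 0.840 ± 0.141 and 1.59 ± 0.438 (log2 fold change 0.48, SE 0.102, adjusted p = 0.0164).

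Further members were higher on average without passing. Bst2, the tetherin gene, averaged 47.00 ± 5.29 and 69.9 ± 14.7 (adjusted p = 0.0627), and Usp18, a protease that removes ISG15, 5.13 ± 0.877 and 8.13 ± 1.68 (adjusted p = 0.141), both without overlap. Irf7, a regulator of the response, had a log2 fold change of 0.58 (adjusted p = 0.165), while Stat2, Eif2ak2 and Ifit2 were at 0.04, 0.02 and -0.05; these 6 were chosen after their values were seen. The mean log2 value of the 35 genes was 3.93, 3.88, 3.92, 3.63 and 3.62 in Mx1-Cre replicates 1 to 5 and 3.92, 4.15, 4.38, 4.64 and 3.96 in P95H replicates 1 to 5. P95H replicates 3 and 4 were highest, and P95H replicate 1 lay within the control range. Of 20 genes of MHC class I and antigen processing, another interferon-responsive group, none was called, 19 had a positive difference and the median was 0.20. Between the genotypes after PHZ, 4 of the 20 were positive (median -0.08). Oas1a lost its call without any 1 of Mx1-Cre replicates 2, 4 and 5 or P95H replicates 3, 4 and 5 (adjusted p up to 0.0702), and both Rtp4 and Oas1a lost it at a pseudocount of 0.1 (adjusted p = 0.0529 and 0.06). With the granulocyte covariate the log2 fold changes were 1.22 for Rtp4, 1.17 for Oas1a, 1.01 for Ifitm3 and 0.48 for Ifi203, close to those without it. Rtp4 and Oas1a then missed the threshold (adjusted p = 0.0535 and 0.0723), and Ifitm3 and Ifi203 passed it (adjusted p = 0.0285 and 0.048). Fitted with the PBS groups alone, Rtp4, Ifitm3 and Ifi203 did not pass (adjusted p = 0.0948, 0.142 and 0.0862).

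Of 23 tested p53 targets, 2 were higher, 1 was lower and 20 were not called (median 0.00), beside 0.358% of all genes called higher and 1.12% called lower. Zmat3, an RNA-binding zinc finger protein that p53 induces, had 3.997, 5.88, 4.04, 4.70 and 4.18 in Mx1-Cre and 10.3, 6.27, 8.13, 7.95 and 7.92 in P95H, with P95H replicate 2 just above the highest control (log2 fold change 0.71, SE 0.134, adjusted p = 0.00666). Phlda3, which opposes the kinase Akt at the membrane, averaged 2.79 ± 0.534 and 5.07 ± 1.51, and here the groups overlapped in 1 P95H library (log2 fold change 0.66, SE 0.142, adjusted p = 0.0181). Ddb2, a sensor of ultraviolet DNA damage, went the other way, from 12.5 ± 1.76 to 9.36 ± 0.986 (log2 fold change -0.38, SE 0.0951, adjusted p = 0.0491). Mdm2, the p53 ubiquitin ligase gene, averaged 29.4 ± 1.57 and 29.4 ± 2.80 (log2 fold change -0.01). Cdkn1a, also on this list, had its largest positive difference, from 0.931 ± 0.463 to 2.45 ± 1.24, and was not called (log2 fold change 0.78, adjusted p = 0.108). Phlda3 lost its call without Mx1-Cre replicate 4 or P95H replicate 5 (adjusted p up to 0.0595) and when only the PBS groups were fitted (0.0764); Ddb2 lost it without any 1 of 8 libraries, all but Mx1-Cre replicate 2 and P95H replicate 2 (adjusted p up to 0.131), and with the granulocyte covariate (log2 fold change -0.37, adjusted p = 0.119), TMM factors (0.0808) and quantile normalization (0.103).

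Other leading increases covered lysosomal, cytoskeletal and mitochondrial proteins. Dpp7, a dipeptidyl peptidase gene of lysosomes and vesicles, had 15.6, 12.7, 11.99, 11.7 and 9.68 in Mx1-Cre and 18.4, 17.7, 17.4, 20.4 and 19.5 in P95H (log2 fold change 0.57, SE 0.102, adjusted p = 0.00446). Idua, the lysosomal enzyme gene alpha-L-iduronidase, had 6.31, 6.45, 5.50, 5.63 and 5.17 in Mx1-Cre and 8.62, 9.72, 8.73, 7.71 and 7.95 in P95H (log2 fold change 0.49, SE 0.0969, adjusted p = 0.00979). Neither gene's groups overlapped, and both calls held without any 1 library, with the granulocyte covariate and without P95H replicates 4 and 5. Tmem86b, a lysoplasmalogenase gene, averaged 6.61 ± 1.84 and 10.4 ± 0.863 (log2 fold change 0.62, SE 0.124, adjusted p = 0.0108), and Gsn, the actin-severing protein gelsolin, 7.33 ± 0.885 and 11.2 ± 1.5 (log2 fold change 0.55, SE 0.0989, adjusted p = 0.00505). Lmcd1, a LIM domain protein gene, averaged 10.4 ± 2.27 and 15.5 ± 0.761 (log2 fold change 0.55, SE 0.104, adjusted p = 0.00666). Ndufaf5, an assembly factor of complex I, averaged 11.5 ± 0.753 and 15.2 ± 1.12 (log2 fold change 0.37, SE 0.0736, adjusted p = 0.00901), opposite in direction to Dmac2, which serves the same complex. Pcbp3, a poly(C)-binding protein gene, averaged 6.97 ± 0.413 and 9.63 ± 0.329 (log2 fold change 0.42, SE 0.0995, adjusted p = 0.0347). That call was lost without any 1 of the 10 libraries (adjusted p up to 0.0922). Without P95H replicates 4 and 5, Tmem86b and Gsn missed the threshold (adjusted p = 0.0747 and 0.0655).

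Tnfsf13os, annotated as antisense to the cytokine gene Tnfsf13, had 3.997, 3.996, 6.44, 4.89 and 3.33 in Mx1-Cre and 7.17, 8.41, 11.1, 15.6 and 11.4 in P95H (log2 fold change 1.07, SE 0.171, adjusted p = 0.00187). The groups did not overlap, and P95H replicate 4 was the highest. Tnfsf13 on the other strand averaged 14.4 ± 5.13 and 22.6 ± 0.767 and was not called (log2 fold change 0.68, adjusted p = 0.0775). The sources used here do not say whether counting used strand, so reads of the 2 overlapping genes cannot be told apart.

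Markers of some other blood cells were higher on average in P95H, without a call. All 28 tested granulocyte and monocyte markers, genes of a lineage that the sort should exclude, had a positive difference (median 0.79). In bulk samples, more or fewer cells of a type and more or less RNA per cell cannot be told apart. Their mean log2 value was 2.90, 2.79, 2.95, 3.44 and 3.60 in Mx1-Cre replicates 1 to 5 and 3.36, 2.91, 4.02, 4.51 and 4.68 in P95H replicates 1 to 5. P95H replicates 3, 4 and 5 lay above every control and P95H replicates 1 and 2 within the control range. The group means were 3.14 ± 0.363 and 3.90 ± 0.755 (SD, n = 5 each), and an exact two-sided permutation test gave p = 0.103 (0.0397 without P95H replicate 2, and between 0.0714 and 0.198 without any 1 of the others). The summed signal of all 34 listed markers was 503 to 1055 in Mx1-Cre and 616 to 2694 in P95H libraries. Itgam, which encodes the integrin CD11b, averaged 1.58 ± 0.425 and 3.22 ± 1.30 (log2 fold change 0.67, adjusted p = 0.0633), and Fcnb, a ficolin gene of immature neutrophils, 3.31 ± 1.15 and 10.8 ± 6.11 (log2 fold change 1.31, adjusted p = 0.107). Ngp, a neutrophil granule gene, reached 166 in Mx1-Cre and 454 in P95H, and Elane, neutrophil elastase, 28.9 and 71.5.

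The 26 listed lymphoid markers summed to 21.4 to 29.1 in Mx1-Cre and 30.8 to 61.9 in P95H, without overlap. The sum was not tested, and the 6 members that passed the filter were positive with none called. The T cell gene Cd3e was at 0 in all libraries but P95H replicate 4 (0.251). Macrophage markers summed to 138 to 169 and 131 to 152, of which the iron exporter gene Slc40a1, which erythroid cells also express, made 127 to 166, and Adgre1, which encodes F4/80, stayed at or below 0.256. Megakaryocyte markers summed to 38.2 to 43.9 and 34.6 to 42.4, basophil, mast cell and eosinophil markers to 3.996 to 14.5 and 5.58 to 12.3, and stromal and endothelial markers to at most 4.45. Of all these lists none held a called gene. With the granulocyte and monocyte marker mean as a covariate, limma called 23 higher and 87 lower genes, 20 and 69 of them among the 39 and 122, and all 161 kept their sign. Beyond this covariate, the part of other cells in the interferon-stimulated and other differences was not tested.

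**Figure D3:**
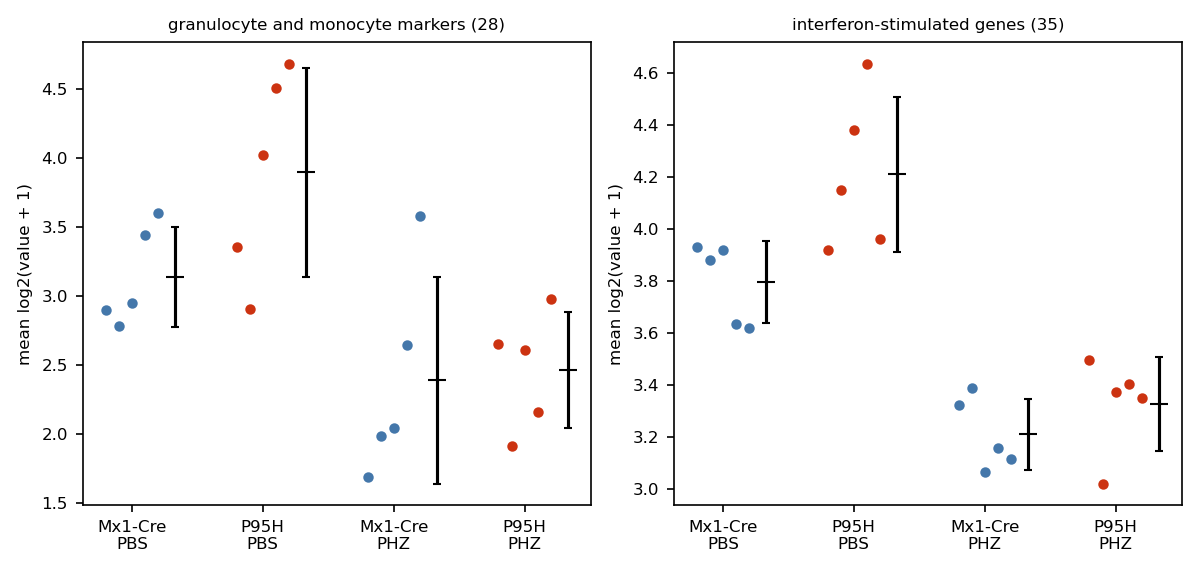
Mean log2(value + 1) per library (y axis) of the 28 tested granulocyte and monocyte markers and of the 35 tested interferon-stimulated genes in the 4 groups, with dots for libraries and bars for mean and SD. P95H PBS replicates 3, 4 and 5 lie above the Mx1-Cre PBS libraries in the marker panel, and P95H PBS replicates 3 and 4 are the highest in the interferon panel.

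The erythroid program itself held no called gene. None of 21 erythroid transcription factors, 18 genes of erythropoietin receptor signalling, 17 of haem synthesis, 18 of iron handling, 4 globins or 27 red cell membrane genes passed. Their medians lay between -0.11 and -0.02, beside -0.03 for all genes, and 3 of the 21 transcription factors had a positive difference. Car1, the carbonic anhydrase of early erythroid cells, came closest, with 4224, 3945, 3956, 4125 and 3796 in Mx1-Cre and 2876, 2175, 2779, 3795 and 3096 in P95H. Each P95H library was below each control, by little in replicate 4 (log2 fold change -0.47, SE 0.121, adjusted p = 0.0587). Car1 passed under 7 alternatives (adjusted p from 0.0143 without P95H replicate 4 to 0.0438 with the authors' factor divided out) and after PHZ (log2 fold change -0.59, adjusted p = 0.00709). Jak2, the kinase that the erythropoietin receptor uses, averaged 51.6 ± 5.41 and 40.9 ± 4.46 (log2 fold change -0.33, adjusted p = 0.118). Hba-a1, an adult alpha-globin gene with a near-identical copy that makes its single value uncertain, averaged 1239 ± 277 and 1129 ± 231 (log2 fold change -0.13), and Tfrc, the transferrin receptor, 366 ± 37.7 and 421 ± 84.2 (log2 fold change 0.18). Without P95H replicate 4, the lowest Tfrc library, Tfrc passed at an adjusted p of 0.0338.

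Nor was any gene of the growth pathway named in the series title called. Of 53 mTORC1 pathway components none passed (median -0.04, 18 positive), and of 85 mTORC1-responsive genes none passed (median 0.03, 57 positive). Between the genotypes after PHZ, 15 of those 85 were positive (median -0.10). Rps6kb2, an S6 kinase gene, averaged 38.6 ± 1.87 and 34.05 ± 2.83 (log2 fold change -0.18, adjusted p = 0.159), and Wdr59, a subunit gene of the GATOR2 complex, 16.5 ± 1.41 and 14.3 ± 1.74 (log2 fold change -0.20, adjusted p = 0.212). Among the responsive genes, Slc9a3r1, a membrane scaffold gene, averaged 12.8 ± 1.67 and 15.4 ± 1.16 (log2 fold change 0.25, adjusted p = 0.159). Pkm, a pyruvate kinase gene, averaged 4.51 ± 1.70 and 9.69 ± 4.86 (log2 fold change 0.87, adjusted p = 0.232). Its highest libraries were P95H replicates 4 and 5, which also led in granulocyte markers. Whether the 2 are linked was not tested. mTORC1 acts largely through phosphorylation, which these values do not measure.

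Several large gene groups leaned one way by small amounts without a call, beside 39.8% positive over all genes. Proteasome subunit genes (31 of 32 positive, median 0.08), heat shock chaperones (25 of 30 positive, median 0.09), nuclear-encoded oxidative phosphorylation genes (54 of 76 positive, median 0.04), cytosolic ribosomal proteins (57 of 82 positive, median 0.02) and ribosome biogenesis genes (36 of 55 positive, median 0.04) were mostly positive. These leans did not recur between the genotypes after PHZ, where 32.4% of all genes were positive. There the same lists, in the same order, had 7 of 32, 2 of 30, 5 of 76, 11 of 82 and 4 of 55 positive. The 13 protein genes of mitochondrial DNA were all negative, with a median of -0.17 and values from -0.44 to -0.05. Of these 13, 4 were positive after PHZ (median -0.02). mt-Co3, a subunit of complex IV, had 7232, 7292, 7437, 11184 and 5698 in Mx1-Cre and 8874, 6713, 5169.7, 6069 and 5792 in P95H, with Mx1-Cre replicate 4 far above the rest (adjusted p = 0.529). Hspa8, the constitutive chaperone gene of the HSP70 family, averaged 2981 ± 294 and 3639 ± 682 (log2 fold change 0.27, adjusted p = 0.254), and Psma2, a proteasome subunit gene, 364 ± 28.6 and 412 ± 10.2 (log2 fold change 0.18, adjusted p = 0.122). In all, 11 of 1150 tested list members were called (0.957%, beside 1.48% of all genes), in 5 of the 46 lists. Members of a list come from the same libraries, so these counts are a description.

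Src family, glycolysis, checkpoint, chromatin and several stress lists held no call. Of 16 Src family kinases and regulators the nearest were Ptprc, the CD45 phosphatase, at 8.50 ± 1.05 and 6.31 ± 1.63 (log2 fold change -0.40, adjusted p = 0.124, or 0.0157 with the granulocyte covariate), and Gab1, a docking protein downstream of cytokine receptors, at 24.3 ± 3.40 and 20.03 ± 0.890 (log2 fold change -0.26, adjusted p = 0.147). Among 23 glycolysis genes Pfkl, a phosphofructokinase, came nearest, at 63.4 ± 5.38 and 54.9 ± 3.26 (log2 fold change -0.20, adjusted p = 0.0912). Among 38 genes of R-loops and the ATR checkpoint, which limit replication stress, Chek2, a checkpoint kinase, was at -0.19 and Rnaseh2a, a ribonuclease H subunit, at 0.23 (adjusted p = 0.152 and 0.155). The 29 chromatin genes mutated in clonal blood disorders had a median of -0.06, with Asxl1 at -0.15 (adjusted p = 0.312). Medians of the lists for cholesterol synthesis, ATF4 and amino acid response, unfolded protein response, BCL2 family and death receptors, hypoxia, autophagy and lysosome, histones, TGF-beta pathway and stem cell genes lay between -0.09 and 0.04.

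**Figure D4:**
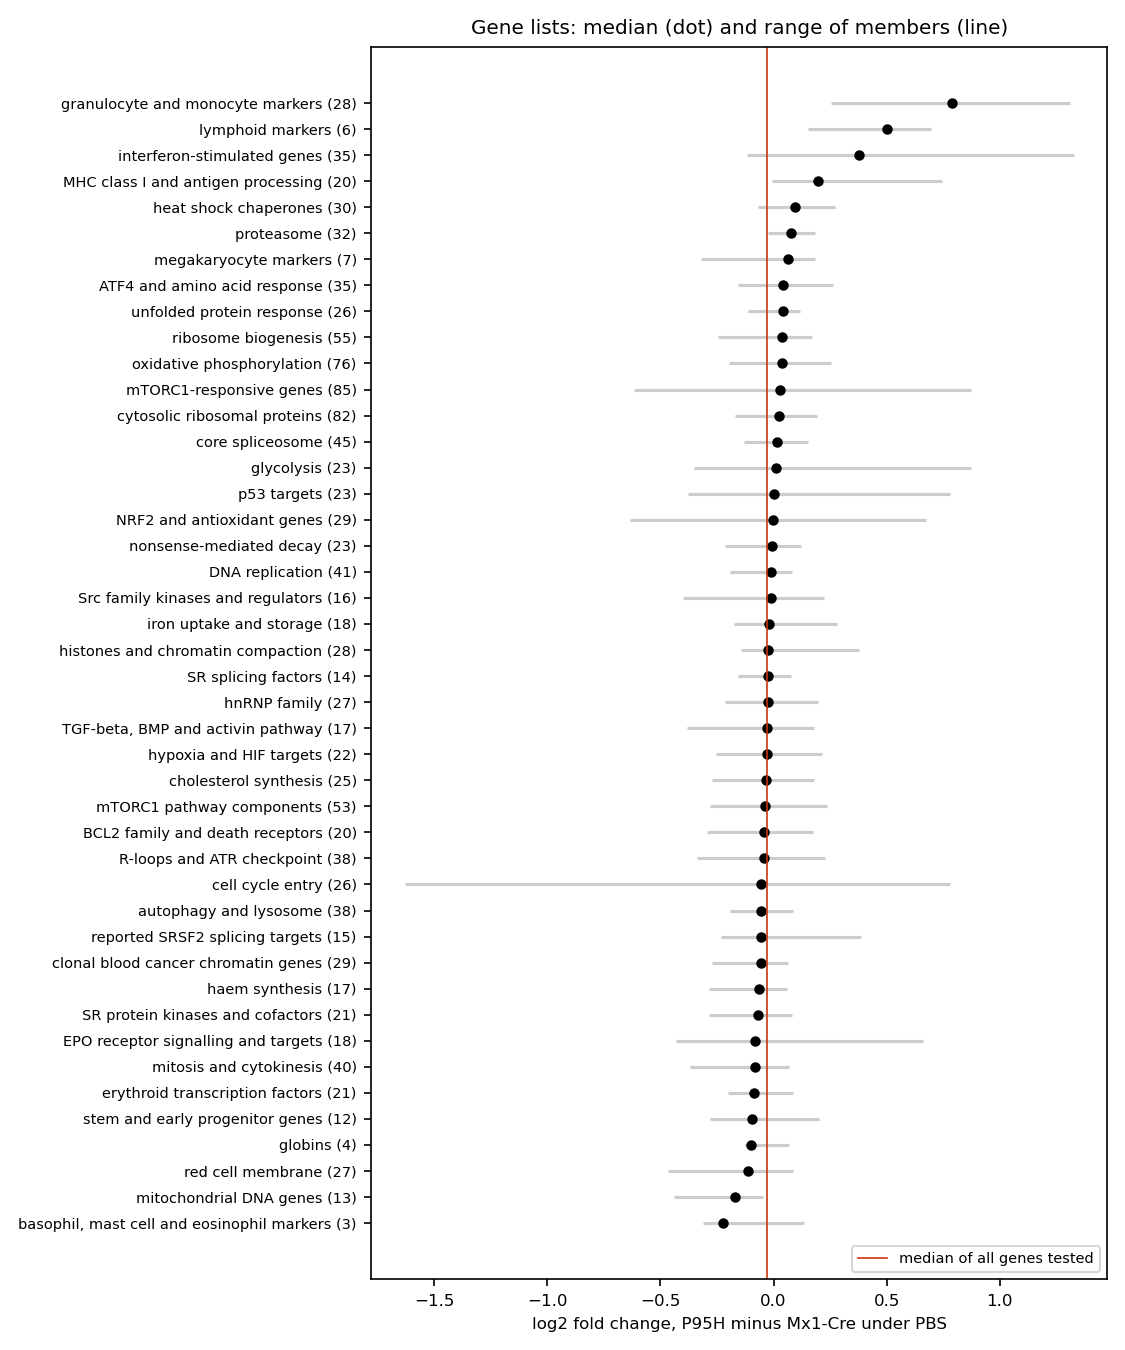
Median (dot) and range (line) of the log2 fold change, P95H minus Mx1-Cre under PBS (x axis), over the tested members of each gene list (y axis, number tested in brackets), with the median of all genes as a red line. Granulocyte and monocyte markers, lymphoid markers and interferon-stimulated genes lie farthest right, and lists of fewer than 3 tested genes are not drawn.

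The same genotypes were compared after PHZ in other libraries, none of them shared with the PBS groups. There, 120 genes were higher in P95H (1.1% of those tested) and 476 lower (4.37%), a split that moved to 155 and 190 under TMM factors, 129 and 163 under quantile normalization and 132 and 145 with the authors' factor divided out. Without Mx1-Cre PHZ replicate 3 they were 70 and 249, without P95H PHZ replicate 3 they were 78 and 253, and without Mx1-Cre PHZ replicate 5 the lower genes were 312. The higher genes numbered 44 with a filter at 5 and 343 without a filter. All 39 genes higher under PBS were also positive after PHZ, where 32.4% of all genes were positive, and 121 of 122 lower genes were also negative. The exception was Gas2l3, a cytoskeletal linker gene, at -0.45 under PBS and 0.00738 after PHZ. Called in the same direction under both treatments were 13 higher genes (33.3% of those under PBS and 10.8% of those after PHZ) and 71 lower genes (58.2% and 14.9%). The median difference of the 39 was 0.55 under PBS and 0.35 after PHZ, and of the 122 -0.37 and -0.32; since the genes were chosen on the PBS values, a smaller size elsewhere is no sign of a weaker effect.

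Single genes show how closely some differences recurred. Smo was at -0.76 under PBS and -0.80 after PHZ (adjusted p = 0.000139 after PHZ), Rbks at -0.73 under PBS and -0.78 after PHZ (adjusted p = 4.61e-05 after PHZ), Slc25a23 at -0.72 under PBS and -0.71 after PHZ (adjusted p = 0.000206 after PHZ) and Dmac2 at -0.57 under PBS and -0.58 after PHZ (adjusted p = 0.000607 after PHZ). Idua and Dpp7 recurred among the higher genes, with 0.52 (adjusted p = 0.00386) and 0.53 (adjusted p = 0.00453) after PHZ. Ccnd1 averaged 1.33 ± 0.849 in Mx1-Cre and 0.266 ± 0.201 in P95H after PHZ (log2 fold change -0.82, adjusted p = 0.0214). None of the interferon-stimulated genes was called between the genotypes after PHZ. Their list median was 0.07 and 26 of 35 were positive, beside -0.05 and 32.4% over all genes. The differences ran from -0.27 to 0.52, the latter in Ifitm3 (adjusted p = 0.115), whose PHZ groups did not overlap. The mean log2 value of the 35 lay between 3.02 and 3.50 in the 10 PHZ libraries, below the 3.62 to 4.64 of the PBS libraries. Rtp4 averaged 0.463 ± 0.115 and 1.05 ± 0.597 (log2 fold change 0.43, adjusted p = 0.351), and Phlda3 2.71 ± 0.526 and 2.94 ± 0.367 (log2 fold change 0.09, adjusted p = 0.76). Granulocyte and monocyte markers had a median of 0.04 after PHZ.

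Whether the genotype difference depended on treatment was tested by the interaction. By limma 0 genes passed, with 577 of 10890 (5.3%) at an unadjusted p under 0.05 and a smallest adjusted p of 0.798. Among the 39 higher and 122 lower genes, 7 and 19 had an unadjusted interaction p under 0.05, but these genes were chosen on the PBS values. Rtp4, Tspan15, Phlda3 and Gsn were called under PBS and not after PHZ. Their interaction terms were -0.89, 0.52, -0.56 and -0.44 (limma, unadjusted p = 0.0254, 0.00809, 0.0103 and 0.00467). At the adjusted threshold, no difference under PBS was shown to differ from that after PHZ.

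**Figure D5:**
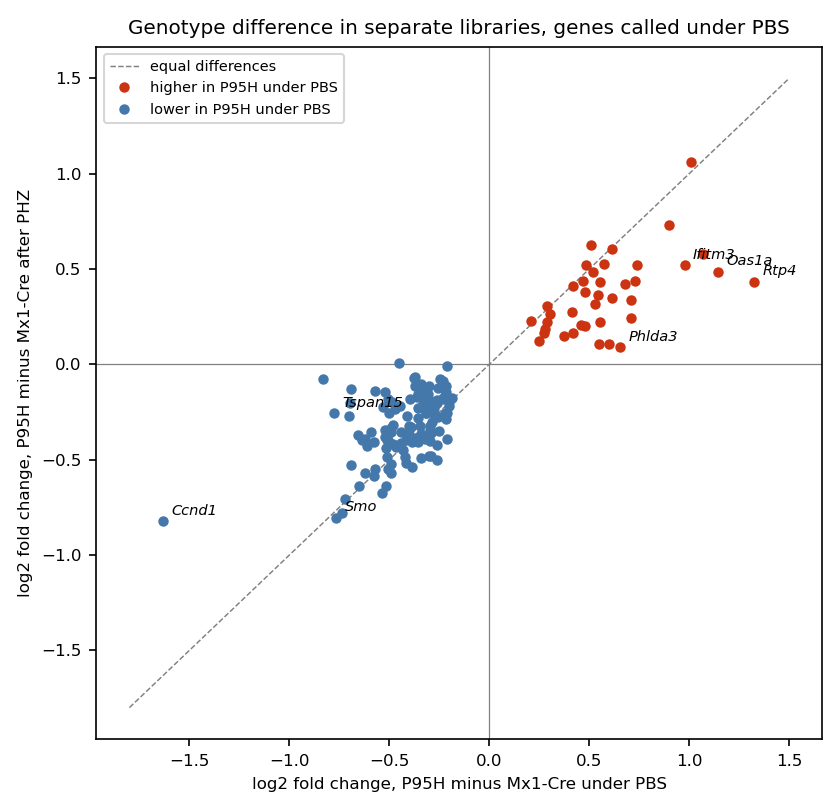
Log2 fold change of P95H against Mx1-Cre under PBS (x axis) and after PHZ (y axis) for the 161 genes called under PBS, with a dashed line of equal values. All 39 higher genes lie above 0 on the y axis and 121 of 122 lower genes below it.

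The called genes were spread over the genome. Chromosome 11, which carries Srsf2, held 10 calls among 933 tested genes (1.07%), beside 1.48% of all genes, and the X chromosome 8 of 357 (2.24%). Within 2 Mb of Srsf2, 3 of 68 tested genes were called (4.41%), all lower. Wider windows held the same 3 calls, among 135 genes within 5 Mb (2.22%) and 151 within 10 Mb (1.99%). The 3 were Timp2, an inhibitor of metalloproteinases (3.37 ± 0.433 and 2.13 ± 0.714, log2 fold change -0.50), Fbf1, a centriole gene (13.9 ± 0.659 and 11.2 ± 1.01, log2 fold change -0.29), and Rnf157, a ubiquitin ligase gene (6.18 ± 0.354 and 4.27 ± 0.468, log2 fold change -0.45). Their adjusted p-values by limma were, in the same order, 0.046, 0.0489 and 0.00666, and the Timp2 groups overlapped. These 3 were chosen for their position after values were seen, and the labels name no strain.

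The words CCNG and GGNG, between which the mutant protein is known to discriminate, were counted on the coding strand of the longest GENCODE coding sequence of each gene, overlapping matches included. Genes higher in P95H had a median of 26.96 CCNG and 21.6 GGNG per kb (34 of 39 had a sequence), lower genes 21.1 and 20.1 (117 of 122), and all tested genes 22.2 and 19.6 (9979 genes). The median GC content was, in the same order, 55.3%, 51.1% and 52.6%. The middle 50% of all genes ran from 15.9 to 29.03 CCNG and 14.7 to 25.4 GGNG, which holds all these medians. That range describes single genes, so it cannot show whether medians of sets differ. The differences between sets were not tested. Coding sequences of higher genes were shorter (median 922.5 bases) and those of lower genes longer (1716) than those of all genes (1356). Higher genes were also less abundant, with a median Mx1-Cre signal of 3.89 under PBS against 16.4 for lower genes and 23.1 for all. Both sets were chosen by their difference from these same Mx1-Cre libraries, so the contrast between them is partly set by that choice.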

How the data were processed

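RNA of sorted CFU-E from 20 mouse libraries was sequenced as paired reads. What the authors deposited is 1 table with a normalised expression signal for each of 37748 gene entries, and no counts. Each library's signal is a TPM-like value rounded to steps of 0.01 and multiplied by 1 factor per library (0.940 to 1.10, found from the values). RSEM 1.2.4, Bowtie, TopHat, TopHat2 2.0.8b and, as genome builds, GRCm38, mm10, GRCh37 and hg19 are named per the submitters' processing notes, with no role or order. The sources used here do not say how the factor was made. A difference between libraries in that factor shifts all genes of a library together.

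Genes with a signal of at least 1 in at least 5 of 20 libraries (10890) were fitted as log2(signal + 1) with limma 3.58.1 in R 4.3.3 (trended, robust moderation), 1 term per group over all 20 libraries, which share 1 estimate of the spread. Fold changes on this scale understate those of low genes. P-values were adjusted by Benjamini-Hochberg over all genes tested, and the threshold was 0.05. The steps were tested on simulated data. Python 3.11.15, numpy 2.4.6, pandas 2.3.3 and matplotlib 3.10.9 did the rest. Gene positions, types and coding sequences came from GENCODE release M21 (GRCm38), matched by gene identifier, and promoters from RefSeq (GRCm38.p6), matched by symbol.

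The genes named were Srsf2, Fyn, the 12 most increased and the 12 most decreased called genes among those with a mean signal of at least 5 over the PBS libraries (predicted genes, pseudogenes and receptor segments left out), and, of 46 gene lists, up to 4 called members or, with none called, the 2 members with the smallest p. A gene named beside these was chosen after its values were seen, or as a marker of the sort or of another cell type. The members and lists were chosen with earlier results of these data known. Replicate numbers did not pair the samples by the labels, so no block entered. The alternatives were 3 other scalings, a pseudocount of 0.1 or 5, a filter at 5 or none, a fit of only the compared groups, moderation without trend, weighted libraries, a replicate block, a granulocyte and a Xist covariate, and leaving out libraries. The depth is unknown, so no counting intervals are given.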

Additional observations from a re-analysis of the deposited data

Results flagged for a closer look

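Of 66 groups of 5 PBS libraries examined, 2 held 1 library far from the rest by Dixon's criterion, which chance meets in about 1 of 20 groups. Smo was 13.2 in P95H replicate 3, beside 9.20 to 10.2 in the other 4 P95H libraries. Gsta4 was 18.9 in Mx1-Cre replicate 4, beside 9.84 to 11.1 in the other 4 controls.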

How the results depend on the processing

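The 39 higher and 122 lower genes under PBS became 19 higher with a filter at 5, 17 and 61 with the PBS groups alone, 158 and 380 with library weights, 23 higher with the granulocyte covariate, 21 and 77 without P95H replicates 4 and 5, and 78 lower under TMM factors and 80 under quantile normalization. Leaving out 1 library gave 21 to 47 higher and 66 to 138 lower genes, and after PHZ 70 to 150 and 249 to 546. After PHZ the 120 higher genes became 343 without a filter and 44 with a filter at 5, and the 476 lower genes 190 under TMM factors, 163 under quantile normalization, 258 with those groups alone and 145 once the authors' factor was divided out. The cause was not tested. Without a filter 1 gene, Cpne9, passed the interaction. The granulocyte marker difference of 0.759 ranged from 0.562 to 1.01 without 1 library. After each group's mean was subtracted gene by gene, same-numbered Mx1-Cre and P95H libraries under PBS correlated at -0.156 to 0.223. With the replicate block 54 higher and 135 lower genes were called under PBS, 138 and 479 after PHZ, and the marker difference of 0.759 had an exact p of 0.0625, the smallest that 5 same-numbered differences allow in a two-sided test.

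Of 108 named genes, none of the 30 called changed sign under any alternative, 23 kept the call without any 1 library, and 24 of the 78 others passed under some alternative. Those with a reversed sign were not called. Fyn went to -0.0428 with the granulocyte covariate, -0.0157 without Mx1-Cre replicate 4, -0.0362 without P95H replicate 5 (0.0748 at most without 1 library) and -0.0734 without P95H replicates 4 and 5. Without these 2, Hba-a1 went to 0.0483, Hbb-bt to 0.112 and Cd68 to -0.114. Hbb-bt ranged from -0.229 to 0.000993 without 1 library, the latter without Mx1-Cre replicate 2. Cd68 was -0.0229 with library weights, -0.0200 with the granulocyte covariate, and -0.00110, -0.0118 and -0.0133 without Mx1-Cre replicate 4, P95H replicate 4 and P95H replicate 5, and reached 0.132 without P95H replicate 2. Il4 was -0.0124 without Mx1-Cre replicate 5 and at most 0.319 without 1 library. Without read counts, the error of low values such as those of Ccnd1 in P95H is not known beyond the spread between libraries.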
